A study of Mus musculus with 44 samples.

Results

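A set of 10 genes was followed across all 8 groups of the series: 6 alpha-defensins (Defa17, Defa21, Defa22, Defa24, Defa29 and Defa30), the lysozyme gene Lyz1, the pentraxin Mptx2, the ribonuclease Ang4 and the lectin Itln1. They were taken from a list of names made with earlier results of these data known, and are 10 of the 29720 genes in each count table. The 44 RNA sequencing libraries came from intestine of C57BL/6 mice in 2 models of inflammatory bowel disease, and the study compared inflamed with non-inflamed mice that received either vehicle or ATI-450, a small molecule that blocks the kinase MK2.

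In the T cell transfer model the hosts were Rag1 null mice, which have no T or B cells of their own. Hosts given 400000 naive T cells by the intraperitoneal route formed the inflamed groups and developed colitis within 8 to 12 weeks. Hosts given 200000 bulk T cells formed the non-inflamed groups. In the TNFΔARE model the inflamed mice were Tnf ΔARE/+ heterozygotes, which lack 1 copy of the AU-rich element that limits Tnf mRNA in all cells, and the non-inflamed mice were their Tnf +/+ littermates. These mice were assigned to treatment at 16 weeks of age. In both models ATI-450 was given at 3 mg/kg, again after 16 hours, and tissue was taken 90 min after the second dose, whereas the series text gives the treatment as 24 hours. Vehicle was methylcellulose and Tween20 in PBS. There were 5 non-inflamed vehicle, 6 non-inflamed inhibitor, 6 inflamed vehicle and 6 inflamed inhibitor libraries of the transfer model. In the same order, TNFΔARE mice gave 5, 5, 5 and 6. The labels do not say that every library came from a separate animal, so p-values measure the spread between these libraries.

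Paneth cells sit at the base of the crypts of the small intestine and release granules of antimicrobial proteins into the lumen, and the healthy distal colon holds few or none of them. Alpha-defensins are short cationic peptides, called cryptdins in the mouse, that damage bacterial membranes, and lysozyme cuts the peptidoglycan of bacterial walls. Wnt signals acting through TCF factors are known to drive the Paneth cell program. Goblet cells also make Itln1 and, in some states, Ang4, so neither marks Paneth cells alone.

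The alpha-defensin genes lie in 1 cluster and are close copies of each other, which limits how well their reads can be told apart. The positions are those of GRCm38 with the GENCODE M21 annotation, and all 10 genes are protein coding, with values that count reads over their exons. Defa21 (ENSMUSG00000074447) lies at chr8:21025545-21026516, Defa30 (ENSMUSG00000074444) at chr8:21134642-21135598 and Defa22 (ENSMUSG00000074443) at chr8:21162277-21163249. Defa29 (ENSMUSG00000074437), the one on the minus strand, lies at chr8:21325887-21327020, Defa17 (ENSMUSG00000060208) at chr8:21655780-21656735 and Defa24 (ENSMUSG00000064213) at chr8:21734494-21735471. The 6 therefore span 710 kb. Lyz1 (ENSMUSG00000069515) lies at chr10:117287797-117292868, Mptx2 (ENSMUSG00000079180) at chr1:173274382-173277777, Ang4 (ENSMUSG00000060615) at chr14:51763878-51773590 and Itln1 (ENSMUSG00000038209) at chr1:171518122-171535294, each on the minus strand.

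The transcripts of Defa21 and Defa22 were identical at 99.5% of aligned bases and those of Defa24 and Defa30 at 98.2%. Of all runs of 31 bases in the defensin transcripts, 57.1% (Defa24) to 93.2% (Defa17) also occurred in another gene. The share was 34.2% for Lyz1 (with Lyz2), 25.1% for Mptx2, 13.8% for Ang4 and 3.80% for Itln1. The counts of single defensin genes are thus uncertain, because the estimate splits shared reads between copies. The coding stretches of the closest pair show how little separates them: in bases 85 to 204 of 282 coding bases, given 5′ to 3′ with the bases that differ in capitals, 2 positions differ, and the rest of the coding sequence is the same.
Defa21: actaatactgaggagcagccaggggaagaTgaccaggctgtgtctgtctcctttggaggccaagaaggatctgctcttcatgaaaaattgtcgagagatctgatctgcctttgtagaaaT
Defa22: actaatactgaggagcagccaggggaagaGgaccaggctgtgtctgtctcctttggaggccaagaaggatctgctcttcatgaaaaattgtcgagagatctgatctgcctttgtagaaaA

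Lyz1 is the lysozyme of Paneth cells and Lyz2 that of macrophages and neutrophils, and the pair matters here because inflamed tissue holds more Lyz2 RNA. Their coding sequences of 447 bases differed at 22 positions, of which 14 fall in bases 37 to 156, again with the differing bases in capitals.
Lyz1: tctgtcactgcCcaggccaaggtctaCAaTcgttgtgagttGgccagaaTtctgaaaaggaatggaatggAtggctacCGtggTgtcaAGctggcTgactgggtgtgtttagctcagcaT
Lyz2: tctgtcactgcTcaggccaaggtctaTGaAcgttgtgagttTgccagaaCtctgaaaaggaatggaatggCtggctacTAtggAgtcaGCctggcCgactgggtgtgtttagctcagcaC

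The promoters are shown as a description of the genes, and their link to levels across libraries was not tested. The RefSeq table of GRCm38.p6 held a window for 7 of the 10 genes (Defa21, Defa22, Defa30, Lyz1, Mptx2, Ang4 and Itln1), and the 250 bases before each start were searched on both strands for CTTTGAT, a form of the TCF motif whose reverse complement reads ATCAAAG. A further form of that motif, spelled CTTTGAA, was searched as well, and so was the TATA box motif TATAAA. The windows of Defa21 (chr8:21025295-21025544, plus strand) and Defa22 (chr8:21162027-21162276, plus strand) were identical over all 250 bases and are printed once, with matches in capitals, followed by Defa30 (chr8:21134400-21134649, plus strand) and Lyz1 (chr10:117292869-117293118, minus strand, printed along the gene).
Defa21 and Defa22: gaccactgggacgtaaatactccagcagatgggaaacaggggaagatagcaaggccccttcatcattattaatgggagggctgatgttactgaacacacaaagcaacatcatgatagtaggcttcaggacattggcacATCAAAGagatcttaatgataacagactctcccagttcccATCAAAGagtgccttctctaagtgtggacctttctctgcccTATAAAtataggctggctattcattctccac
Defa30: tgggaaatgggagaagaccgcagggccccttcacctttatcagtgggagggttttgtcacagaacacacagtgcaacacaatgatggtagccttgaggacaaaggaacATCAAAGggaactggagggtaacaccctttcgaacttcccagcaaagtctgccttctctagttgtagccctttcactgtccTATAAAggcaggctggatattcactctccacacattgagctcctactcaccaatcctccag
Lyz1: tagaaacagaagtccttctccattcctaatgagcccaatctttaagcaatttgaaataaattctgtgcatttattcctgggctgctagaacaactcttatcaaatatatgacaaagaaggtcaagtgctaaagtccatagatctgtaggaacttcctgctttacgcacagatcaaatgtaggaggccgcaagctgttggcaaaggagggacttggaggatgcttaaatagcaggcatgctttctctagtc

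Defa21 and Defa22 each held 2 matches to CTTTGAT and Defa30 held 1, all as ATCAAAG, and the 3 windows each held 1 TATAAA. Lyz1, Mptx2, Ang4 and Itln1 held no match to any of the 3 motifs in these windows. Among 32851 promoter windows of this length, 3.21% held CTTTGAT on either strand, 4.46% held CTTTGAA and 12.4% held TATAAA. The Defa30 window was identical to that of Defa21 at 77.3% of 220 aligned bases. A match describes letters and is not a measured site.

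Sequencing depth, in M counts per library (M for 1000000), was 5.95 to 22.3 with a median of 17.7 for transfer mice and 5.80 to 13.1 with a median of 10.5 for TNFΔARE mice. The labels name distal colon and ileum as the tissues but call every library intestine. Hoxb13, a gene of the distal colon, was at 98.0 to 562 CPM (counts per 1000000, on library sizes scaled by TMM) in 22 of the 23 transfer libraries and at 0.964 or below in all 21 TNFΔARE libraries. Sis, the sucrase of small intestinal enterocytes, was at 790 to 5380 CPM in the TNFΔARE libraries and at 1.15 or below in 21 of the 23 transfer libraries. The exceptions were 2 libraries labelled transfer inflamed vehicle. Replicate 3 held 0.0715 CPM of Hoxb13 and 6070 CPM of Sis, and its 12 myeloid markers summed to 221 CPM against 1040 to 5050 in the other 5 libraries of the group and 143 to 459 in the non-inflamed vehicle libraries. Replicate 1 held 105 CPM of Hoxb13, 186 CPM of Sis and 18100 CPM over 4 pancreatic acinar genes. That pancreatic sum was also above 100 CPM in inflamed vehicle replicate 5 (222 CPM) and in inflamed inhibitor replicates 3 (5290 CPM), 5 (4360 CPM) and 6 (1270 CPM). The inflammation fits of Defa24, Lyz1 and Itln1 on vehicle, and the test between models, are therefore given with and without replicates 1 and 3. Other transfer fits include both libraries unless stated.

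In the non-inflamed TNFΔARE littermates the 10 genes were among the abundant transcripts. The 29 alpha-defensin genes in the table together took 4.96% ± 1.25 (SD, n = 5) of all counts on vehicle and 5.05% ± 1.75 (SD, n = 5) on ATI-450. Per kb of exon, which allows genes to be compared, mean levels on vehicle were 19500 ± 4710 CPM per kb for Defa24, 13600 ± 4830 for Defa21 and 11600 ± 3740 for Defa22. Lyz1 followed at 9130 ± 3600, Defa17 at 8920 ± 1620 and Defa30 at 7720 ± 1560 (SD, n = 5 each). Itln1 stood at 3130 ± 802, Defa29 at 2200 ± 425, Ang4 at 943 ± 313 and Mptx2 at 606 ± 300 CPM per kb. The spreads of Defa21, Defa22, Lyz1, Defa17 and Defa30 overlapped, so the order among neighbours there was not resolved. Ranges also overlapped for Defa24 (11900 to 24500) with Defa21 (6730 to 20200), for Itln1 with Defa29 and for Ang4 with Mptx2. Within each of these libraries the estimate for Defa24 was above that for Defa21.

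In the non-inflamed vehicle libraries of the transfer model the same genes were near or at 0, apart from Ang4 and traces of Lyz1 and Itln1. The 6 defensins had no count in replicates 1, 2 and 4, Defa17 had 1 count in replicate 6, and replicate 7 held 0.0491 to 0.344 CPM of each. Lyz1 was at 5.70, 6.99, 10, 3.07 and 11.5 CPM and Itln1 at 1.88, 7.54, 3.05, 1.65 and 1.67 CPM. Ang4 was at 13, 151, 9.77, 73.5 and 6.83 CPM, a range that holds the medians of all 4 transfer groups. Mptx2 was at 0 to 0.183 CPM, while Mptx1, its colonic relative, was at 397 to 4410 CPM in the same libraries. Between the non-inflamed vehicle groups, Lyz1, Itln1 and Ang4 were higher in the TNFΔARE libraries in edgeR's quasi-likelihood test, where 26.1% of 14136 genes tested passed (14.3% higher), and their groups did not overlap, against 11.5% of genes without overlap in that direction. The 6 defensins and Mptx2 held 0 to 7 counts in each transfer library here and entered the test only through the TNFΔARE group, so their calls and lack of overlap were set by the filter and are given as levels. The log2 difference was 10.56 ± 0.57 (SE) for Lyz1 (adjusted p = 8.2e-08), 10.11 ± 0.58 for Itln1 (adjusted p = 1.34e-07) and 3.68 ± 0.83 for Ang4 (adjusted p = 0.00596). The fitted differences of the defensins, 15.15 to 17.26, depend on the prior count because nearly all transfer libraries were at 0. Mptx1 went the other way by -10.54 ± 0.78 (adjusted p = 1.16e-06). Gut region, host and batch were not shared by these groups and cannot be told apart.

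**Figure D1:**
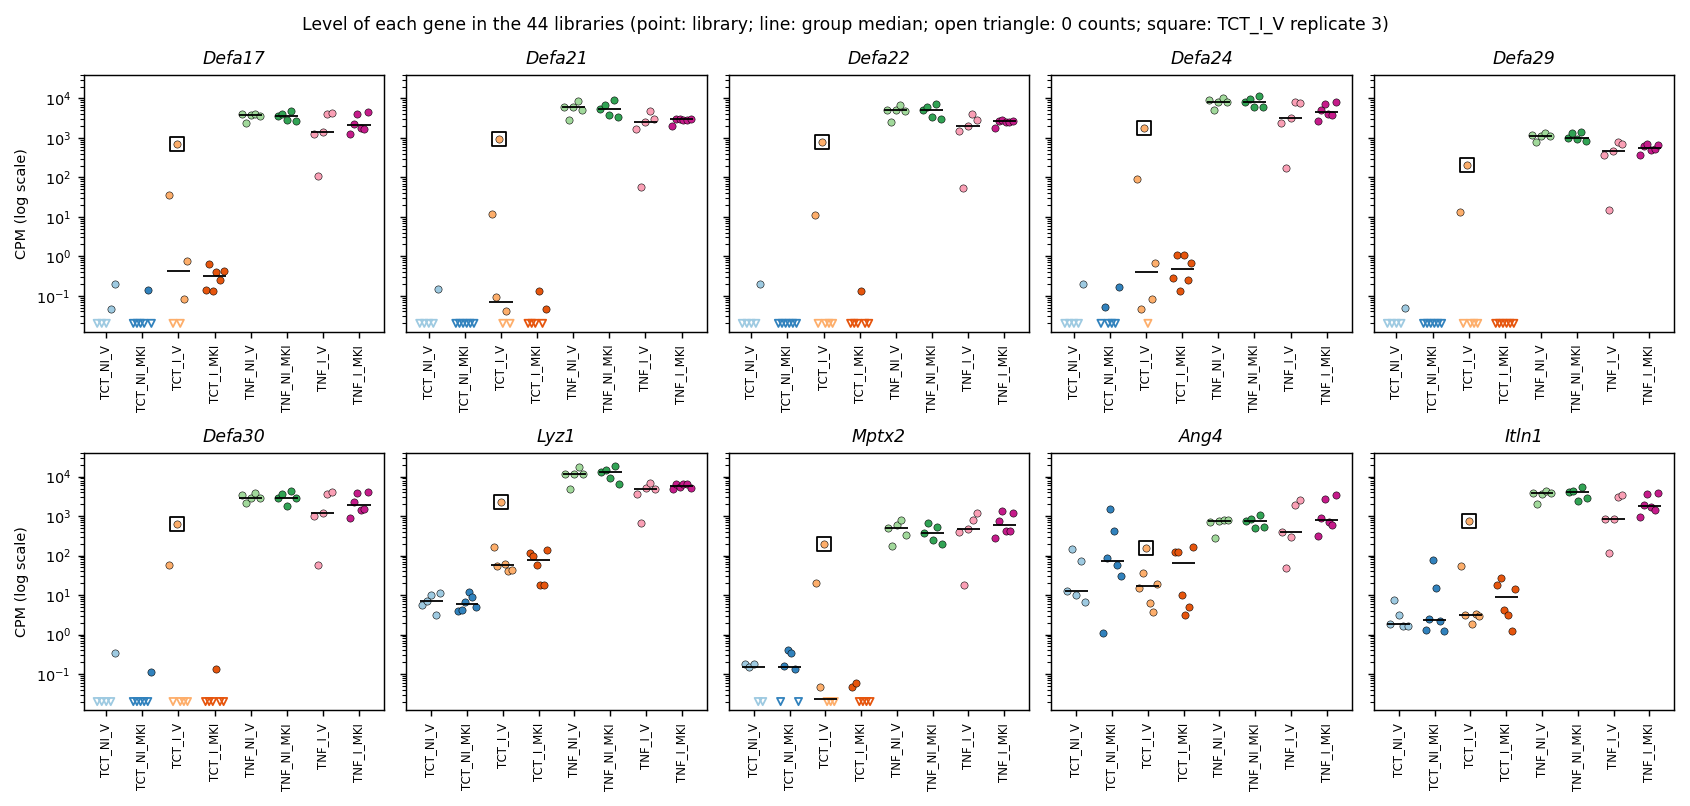
Level of each of the 10 genes in CPM (log axis) in the 44 libraries, by group (NI, non-inflamed; I, inflamed; V, vehicle; MKI, ATI-450). Points are libraries, lines are group medians, open triangles are libraries with 0 counts and the square marks transfer inflamed vehicle replicate 3, where all 10 genes lie above the other 5 libraries of its group.

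The TNFΔARE comparison asks whether Paneth cell transcripts differ between the inflamed and the healthy small intestine. On vehicle, Lyz1 was lower in the inflamed libraries, and it alone of the 10 genes passed the adjusted threshold of 0.05, where 15.9% of 14370 genes tested did (7.27% lower). The other 9 had fitted differences from -1.52 (Itln1) to -0.05 (Ang4) on the log2 scale and did not pass. The median over the 10 was -1.27, against -0.02 over all genes tested. No gene of the 10 was without overlap between these groups, where 9.68% of all genes were. Since the tissue was not dissociated, fewer Paneth cells and less RNA per cell cannot be told apart.

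Defa24, the most abundant defensin, was at 9150, 4970, 8300, 10300 and 8200 CPM in the 5 non-inflamed vehicle libraries. The inflamed vehicle libraries held 2410, 169, 3150, 8130 and 7710 CPM. Replicates 4 and 5 thus reached the non-inflamed range, replicates 1 and 3 lay below it, and replicate 2 was far below every other TNFΔARE library. The fitted difference was -1.22 ± 0.56 (adjusted p = 0.162).

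Defa21 was at 6060, 2810, 5920, 8450 and 5190 CPM without inflammation and at 1700, 55.6, 2480, 4890 and 3050 CPM with it. Its near copy Defa22 went from 5040, 2520, 5070, 6920 and 4810 CPM to 1480, 55.1, 2060, 4160 and 2880 CPM. In all 21 TNFΔARE libraries the count of Defa21 was 1.01 to 1.22 times that of Defa22, a ratio that rests on the few bases that separate the pair. The differences were -1.32 ± 0.61 (adjusted p = 0.163) for Defa21 and -1.32 ± 0.59 (adjusted p = 0.148) for Defa22.

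Defa17 was at 3970, 2430, 3770, 3950 and 3580 CPM without inflammation and at 1230, 111, 1420, 3930 and 4250 CPM with it, so that replicates 4 and 5 were in the upper part of the non-inflamed range or above it. Defa30 had the same pattern, with 3390, 2200, 2950, 3870 and 2960 CPM against 992, 58.9, 1180, 3610 and 4140 CPM. Defa29, the least abundant of the 6, was at 1210, 781, 1130, 1370 and 1090 CPM against 372, 14.6, 467, 801 and 692 CPM, and here only replicate 4 entered the non-inflamed range. The differences were -1.06 ± 0.54 (Defa17, adjusted p = 0.215), -1.07 ± 0.60 (Defa30, adjusted p = 0.269) and -1.41 ± 0.53 (Defa29, adjusted p = 0.079).

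Lyz1 was at 11400, 4890, 11700, 17700 and 11900 CPM in the non-inflamed vehicle libraries and at 3610, 656, 5170, 6900 and 4900 CPM in the inflamed ones. Inflamed replicates 3, 4 and 5 exceeded only the lowest non-inflamed library, replicate 2. The fitted difference was -1.49 ± 0.45 (adjusted p = 0.0264). The call was lost without non-inflamed replicate 4 (adjusted p = 0.0617), without inflamed replicate 1 (adjusted p = 0.0612), and when only batch 2 was used (-1.48 ± 0.58, adjusted p = 0.164). Lyz2, the myeloid lysozyme, rose by 3.68 ± 0.51 (adjusted p = 5.09e-05) in the same contrast, from 294, 92.6, 158, 347 and 116 CPM to 2500, 3700, 2630, 2130 and 1320 CPM. Lyz1 counts were 3860 to 10300% of Lyz2 counts without inflammation and 17.7 to 370% with it.

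Itln1, an intelectin that binds sugars of microbial surfaces, was at 3970, 1980, 3690, 4310 and 3880 CPM without inflammation and at 839, 116, 867, 3080 and 3450 CPM with it. It had the largest fitted difference of the 10, -1.52 ± 0.54, and missed the threshold (adjusted p = 0.0627). Replicates 4 and 5 again overlapped the non-inflamed libraries.

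Ang4 and Mptx2 were not low in all inflamed libraries. Ang4, a secreted ribonuclease with antibacterial activity, was at 703, 278, 770, 791 and 800 CPM without inflammation and at 399, 48.2, 300, 1890 and 2560 CPM with it. Replicates 4 and 5 were above every non-inflamed library and the other 3 inflamed libraries were below the median of that group. Mptx2, a mucosal pentraxin, was at 513, 179, 593, 795 and 327 CPM against 387, 18.5, 473, 797 and 1210 CPM. The differences were -0.05 ± 0.66 (Ang4, adjusted p = 0.981) and -0.19 ± 0.62 (Mptx2, adjusted p = 0.902), and both were positive without the batch term (0.66 for Ang4 and 0.27 for Mptx2). The log2 ratio of Ang4 to Lyz1 CPM ran from -4.49 to -3.90 without inflammation and from -4.11 to -0.94 with it. Replicate 5 was the one inflamed vehicle library of batch 3, and replicate 4 belonged to batch 2 with all non-inflamed libraries.

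Inflamed vehicle replicate 2 had the lowest value of all 21 TNFΔARE libraries for each of the 10 genes. Alpha-defensins made up 0.0894% of its counts, against 1.99 to 4.62% in the other 4 libraries of the group. Its 14 small intestinal enterocyte markers summed to 16800 CPM, within the group's range of 11900 to 22800, and its 12 myeloid markers to 4410 CPM, the highest of the group. Without this library Lyz1 still passed (-1.18 ± 0.34, adjusted p = 0.0268), Defa29 passed as well (-1.06 ± 0.24, adjusted p = 0.00598), and Defa24 was at -0.87 ± 0.36 (adjusted p = 0.14). Without replicate 4, which had the highest sum of the 6 defensins in the group (25500 CPM), 7 of the 10 passed, all lower (Defa17, Defa22, Defa24, Defa29, Defa30, Lyz1 and Itln1). For Itln1 the difference was then -2.37 ± 0.52 (adjusted p = 0.00352).

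**Figure D2:**
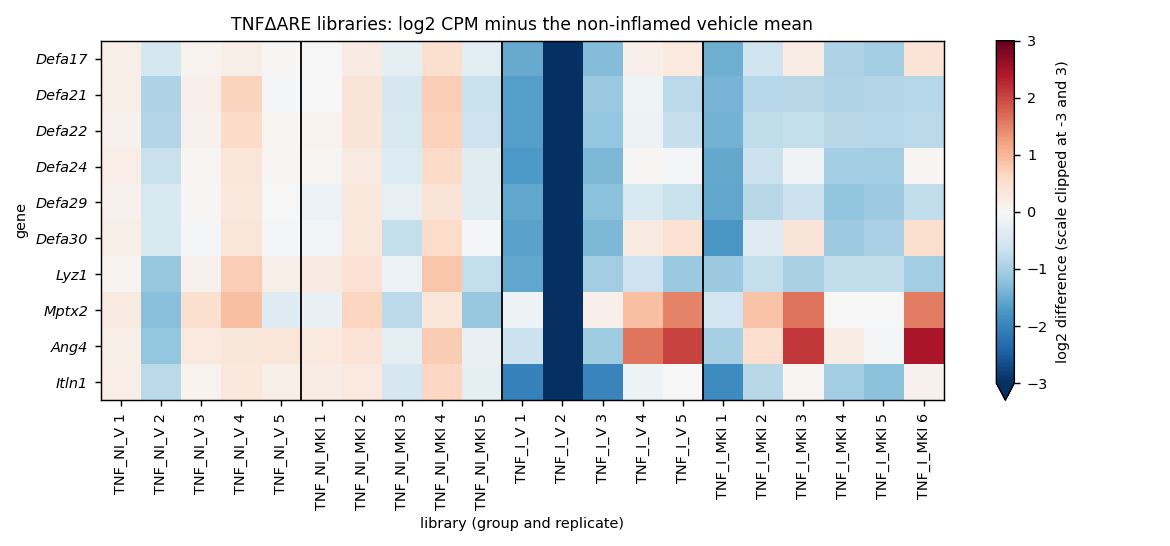
Log2 CPM of the 10 genes in the 21 TNFΔARE libraries, each minus the gene's mean in the non-inflamed vehicle group (colour scale ends at -3 and 3; vertical lines divide the groups). Inflamed vehicle replicate 2 is low for all 10 genes, and Ang4 and Mptx2 are above the non-inflamed mean in inflamed vehicle replicates 4 and 5 and inflamed inhibitor replicates 2, 3 and 6.

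On ATI-450, none of the 10 passed between inflamed and non-inflamed TNFΔARE libraries, where 12.5% of genes tested did (4.56% lower). The median over the 10 was -1.51, against -0.01 over all genes. At an unadjusted p under 0.05 stood 6 of the 10, all lower (Defa17, Defa24, Defa29, Defa30, Lyz1 and Itln1), and 3438 of all 14370 genes in either direction. Lyz1, Defa21, Defa22 and Defa29 were without overlap between the groups, all 4 lower in the inflamed libraries, where 10.9% of all genes were. Overlap was read on CPM without a batch term, so batch and inflammation cannot be told apart in it. Defa21 and Defa22 are near copies and not separate results. Lyz1 was at 12900, 14400, 9390, 18900 and 6530 CPM without inflammation and at 4940 to 6470 CPM (median 5900) with it, a difference of -1.30 ± 0.61 (adjusted p = 0.195). Defa21 was at 5350, 6990, 3750, 8970 and 3390 CPM without inflammation and at 2030 to 3010 CPM (median 2930) with it, a difference of -1.41 ± 0.84 (adjusted p = 0.344). Defa29 was at 975, 1370, 919, 1430 and 852 CPM against 373 to 701 CPM (median 566), a difference of -1.57 ± 0.72 (adjusted p = 0.185). These fits carry the batch term, since 5 of the 6 inflamed inhibitor libraries were in batch 3 and all non-inflamed libraries in batch 2, and no batch held enough of both groups to be fitted alone.

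Among the rest, Defa24 was at 8100, 9540, 6010, 11800 and 6200 CPM without inflammation and at 2730 to 8310 CPM (median 4510) with it. Itln1 was at 4040, 4220, 2420, 5330 and 2840 CPM against 929 to 3770 CPM (median 1820), with the lowest adjusted p of the 10 (-2.02 ± 0.74, adjusted p = 0.0826). Ang4 was at 760, 825, 515, 1060 and 532 CPM against 314 to 3440 CPM (median 806). Its inflamed replicates 3 (2730 CPM) and 6 (3440 CPM) lay above every non-inflamed library, as did those replicates for Mptx2 (1320 and 1230 CPM). The fitted difference of Ang4 was -1.01 ± 0.95 (adjusted p = 0.608), and it was 1.00 without the batch term. The 2 inflammation contrasts of this model use different libraries but share one fit and its batch estimate.

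ATI-450 against vehicle gave no call among the 10 in either TNFΔARE state, and 0% of all genes passed in both. In inflamed libraries the fitted differences ran from -0.83 ± 0.83 (Ang4) to 0.28 ± 0.52 (Lyz1), with adjusted p of 0.989 or above, and 216 of all genes had an unadjusted p under 0.05. The 95% confidence interval was -0.80 to 1.37 for Lyz1, -1.74 to 0.97 for Defa24 and -2.56 to 0.89 for Ang4. In non-inflamed libraries the differences ran from -0.26 ± 0.60 (Mptx2) to 0.13 ± 0.64 (Ang4), and 411 of all genes had an unadjusted p under 0.05. No gene of the 10 was without overlap in either state, where 1.29% (inflamed) and 0.362% (non-inflamed) of all genes were. Among the inflamed libraries, batch 2 held 4 on vehicle and 1 on ATI-450, and batch 3 held 1 on vehicle and 5 on ATI-450. Treatment and batch were thus nearly confounded there. The batch term rests on few libraries, and overlap was read without that term. All non-inflamed libraries were in batch 2. The test of whether the response differed with inflammation also gave no call among the 10 or over all genes (0% of 14370, with 252 at an unadjusted p under 0.05). DESeq2 gave no call among the 10 in these 3 contrasts.

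**Figure D3:**
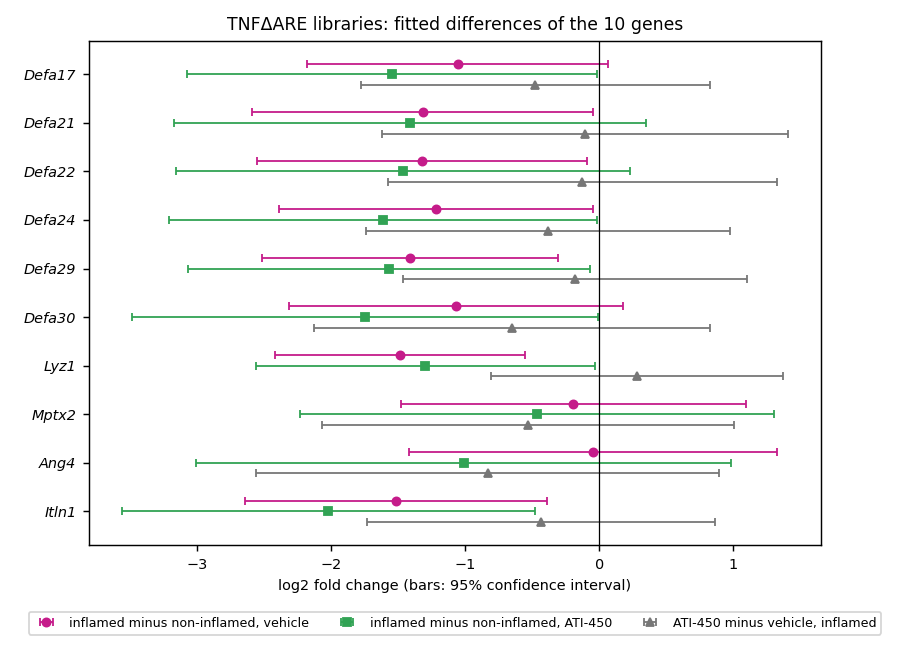
Fitted log2 fold changes of the 10 genes in the TNFΔARE model with 95% confidence intervals, for inflamed minus non-inflamed on vehicle (circles), the same on ATI-450 (squares) and ATI-450 minus vehicle in inflamed libraries (triangles). The interval for Lyz1 on vehicle has the lowest upper end (-0.56), and the intervals for ATI-450 minus vehicle all cross 0.

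Calls among the other genes of the Paneth program are given beside the shares over all genes. On vehicle 15.9% of all genes tested passed (7.27% lower), and on ATI-450 12.5% did (4.56% lower). Of 23 further alpha-defensin genes that were counted, 21 were tested, and on vehicle 1 was lower in inflamed TNFΔARE libraries and 0 higher, with a median of -1.25. The 1 that passed, Defa36 (-2.13, adjusted p = 0.00745), is outside the naming rule and was picked after its value was seen. The 4 most abundant of them did not pass: Defa2 at -1.30 ± 0.57 (adjusted p = 0.139), Defa20 at -1.39 ± 0.55 (adjusted p = 0.103), Defa37 at -1.13 ± 0.56 (adjusted p = 0.2) and Gm7861 at -1.50 ± 0.56 (adjusted p = 0.0806). On ATI-450 0 of the 21 passed, with a median of -1.56.

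Among 26 Paneth program genes outside the defensins, 2 fell and 1 rose on vehicle in the TNFΔARE model, and the list's median was -0.14. Over all genes tested the share that passed was 15.9%. Reg3a, a secreted lectin, fell by 2.44 ± 0.36 (log2, adjusted p = 9.8e-05), from 60.7, 116, 64.1, 168 and 125 CPM to 8.65, 12.6, 26.2, 31.5 and 20.4 CPM. Reg3b, a related lectin, fell by 2.35 ± 0.63 (adjusted p = 0.0142). Nod2, a sensor of bacterial peptidoglycan that myeloid cells also express, rose by 2.18 ± 0.23 (adjusted p = 2.86e-06). Mmp7, the protease that activates mouse alpha-defensins, was at 364, 142, 360, 571 and 313 CPM without inflammation and at 257, 188, 410, 434 and 429 CPM with it (-0.13 ± 0.37, adjusted p = 0.893). On ATI-450, 3 fell (Reg3b, Reg3a and Pla2g2a) and 2 rose (Nod2 and Rab3d), where 12.5% of all genes tested passed.

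Markers of other cells also differed between the TNFΔARE groups, where 15.9% of all genes tested passed on vehicle. Their part in the levels above was not tested. On vehicle 12 of 12 myeloid markers rose (median 3.26), with summed levels of 187 to 427 CPM without inflammation and 1750 to 4410 CPM with it. Of 14 small intestinal enterocyte markers 10 fell and 0 rose (median -1.40), with sums of 24000 to 46600 CPM against 11900 to 22800 CPM. Sis fell by 1.73 ± 0.26 (adjusted p = 0.000116). Of 12 goblet markers 1 rose and 0 fell, and 0 of 9 stem and Wnt markers changed, with Lgr5 at -0.29 ± 0.30 (adjusted p = 0.627). Of 8 general epithelial markers 1 rose and 1 fell, 0 of 3 pancreatic markers passed, and of 8 colon markers 4 rose and 2 fell. The pancreatic list includes Clps, which is named below for its likeness to the 10 genes. Car1, a colonic carbonic anhydrase, was at 776, 8.62, 442, 1.22 and 277 CPM in the inflamed vehicle libraries and at 2.78 or below in the non-inflamed ones.

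Across the 21 TNFΔARE libraries the levels of the defensins varied together. As a description over libraries that share depth and a batch with the groups, Pearson's r of log2 CPM was 0.930 to 0.999 (median 0.975) over the 15 pairs of defensins, which also share reads. It was 0.824 to 0.952 for Lyz1 with the defensins, 0.925 to 0.982 for Itln1, 0.735 to 0.844 for Mptx2 and 0.669 to 0.850 for Ang4. Without inflamed vehicle replicate 2 the ranges were 0.710 to 0.996 for defensin pairs, 0.528 to 0.954 for Lyz1, 0.829 to 0.986 for Itln1, 0.1 to 0.536 for Mptx2 and 0.234 to 0.736 for Ang4 (20 libraries). In the 10 non-inflamed libraries alone Mptx2 (0.758 to 0.939) and Ang4 (0.764 to 0.927) tracked the defensins about as closely as Lyz1 did (0.736 to 0.975). In the 11 inflamed libraries alone, which include inflamed vehicle replicate 2, r was 0.931 to 0.991 for Mptx2, 0.796 to 0.959 for Ang4 and 0.881 to 0.986 for Lyz1.

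Likeness to the 10 was measured as Pearson's r with the mean of their standardized log2 CPM over these 21 libraries. They include inflamed vehicle replicate 2, the lowest library for all 10 genes, and how far the ranking rests on it was not tested. Among 13059 candidates outside the alpha-defensins, the closest genes were Clps (r = 0.963), Pla2g2f (0.945), Tmed6 (0.929), Mgme1 (0.903), Habp2 (0.897), Pla2g2a (0.888), Wnt3 (0.884) and Mnx1 (0.850). Clps encodes colipase, Pla2g2a and Pla2g2f encode secreted phospholipases and Wnt3 a Wnt ligand. In the transfer model, over 22 libraries without replicate 3 of the inflamed vehicle group and 4 genes (Defa24, Lyz1, Ang4 and Itln1), Golt1b (0.784) and Fkbp11 (0.777) came first. The profiles of the models hold different genes, so these r values cannot be set against those above.

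The transfer comparison asks the same question of colitis in the distal colon, where 4 of the 10 genes (Defa24, Lyz1, Ang4 and Itln1) passed the filter on low counts. On vehicle Lyz1 and Itln1 rose, where 14.2% of 15317 genes tested passed (7.74% higher). Defa24 also passed, but it entered the fit through inflamed libraries alone, with 0 to 4 counts in each of the 11 non-inflamed libraries, so the filter fixed its direction and its call is no support. Lyz1 alone was without overlap between the groups, where 3.49% of all genes were higher without overlap. Batch 1 held 3 non-inflamed vehicle libraries, batch 3 held 1 inflamed, and batch 4 held 2 non-inflamed and 5 inflamed. Overlap was read on CPM without a batch term, so it does not account for batch. Much of this rested on replicate 3, which is small intestine-like in Sis and Hoxb13, and on replicate 1.

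Defa24 in the inflamed vehicle libraries had a lowest value of 0, a median of 0.389 and a highest of 1770 CPM, the last in replicate 3, with 92.0 CPM in replicate 1 and at most 0.696 CPM in the other 4. The remaining defensins had 203 to 942 CPM in replicate 3, 11.1 to 58.9 CPM in replicate 1 and at most 0.749 CPM elsewhere. Alpha-defensin genes made up 1.11% of the counts of replicate 3 (175793 counts), 0.042% in replicate 1 (2500 counts) and at most 0.000453% in any other transfer library. Mptx2 was at 195 CPM in replicate 3, 20.1 CPM in replicate 1 and 0.0469 CPM or less in the rest. The fitted difference of Defa24 was 12.18 ± 2.54 (adjusted p = 0.00342), 6.45 ± 2.18 without replicate 3 (adjusted p = 0.0365) and 1.63 ± 1.25 without replicates 1 and 3 (adjusted p = 0.368). It depends on the prior count, since 4 of the 5 non-inflamed libraries were at 0.

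Itln1 in the inflamed vehicle libraries ran from 1.86 to 744 CPM (median 3.21), with 744 CPM in replicate 3 and 53.0 CPM in replicate 1. Its difference of 6.72 ± 1.78 (adjusted p = 0.0168) became 2.86 ± 1.30 (adjusted p = 0.119) without replicate 3 and 0.99 ± 1.04 (adjusted p = 0.524) without both. It was also lost without non-inflamed vehicle replicate 6 (adjusted p = 0.0691), with the 2 groups alone (adjusted p = 0.464) and in batch 4 alone (adjusted p = 0.558). Ang4 ran from 3.74 to 154 CPM (median 17.2), overlapped the non-inflamed libraries and did not pass (0.55 ± 1.29, adjusted p = 0.802). The highest value, in replicate 3, was about that of non-inflamed replicate 2 (151 CPM).

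Lyz1 was higher in every inflamed vehicle library than in any non-inflamed one. The values ran from 41.9 to 2220 CPM (median 57.8), against 3.07 to 11.5 CPM without inflammation, and the difference was 5.83 ± 1.20 (adjusted p = 0.00464). Without replicate 3 it was 3.46 ± 0.66 (adjusted p = 0.0016), and without replicates 1 and 3, where the 4 libraries held 41.9 to 60.9 CPM, it was 2.70 ± 0.58 (adjusted p = 0.00515). The call was lost when the 2 groups were fitted alone (6.05 ± 2.22, adjusted p = 0.405) and in batch 4 alone (6.09 ± 2.54, adjusted p = 0.558). On ATI-450 Lyz1 was the one gene of the 10 to pass and again the one without overlap, at 17.6 to 136 CPM (median 78.2) against 3.93 to 11.8 CPM (median 5.90), a difference of 3.46 ± 0.93 (adjusted p = 0.0113). In that contrast 25.3% of genes passed (13.4% higher) and 7.23% were higher without overlap.

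Lyz2 moved with Lyz1 in this model. It rose by 3.23 ± 0.69 on vehicle (adjusted p = 0.00541) and by 3.76 ± 0.60 on ATI-450 (adjusted p = 0.000244). Lyz1 counts were 3.99 to 6.43% of Lyz2 counts in the non-inflamed vehicle libraries, 3.80 to 7.72% in the non-inflamed inhibitor libraries, 1.41 to 7.20% in inflamed vehicle replicates 2, 4, 5 and 6 and 1.57 to 5.99% in the inflamed inhibitor libraries. In inflamed vehicle replicate 1 the share was 15.4% and in replicate 3 it was 2230%. Outside these 2 libraries, Lyz1 was thus a small share of Lyz2 in non-inflamed and inflamed libraries. How many of these counts were reads of Lyz2, with which Lyz1 shares the stretches printed above, was not tested.

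**Figure D4:**
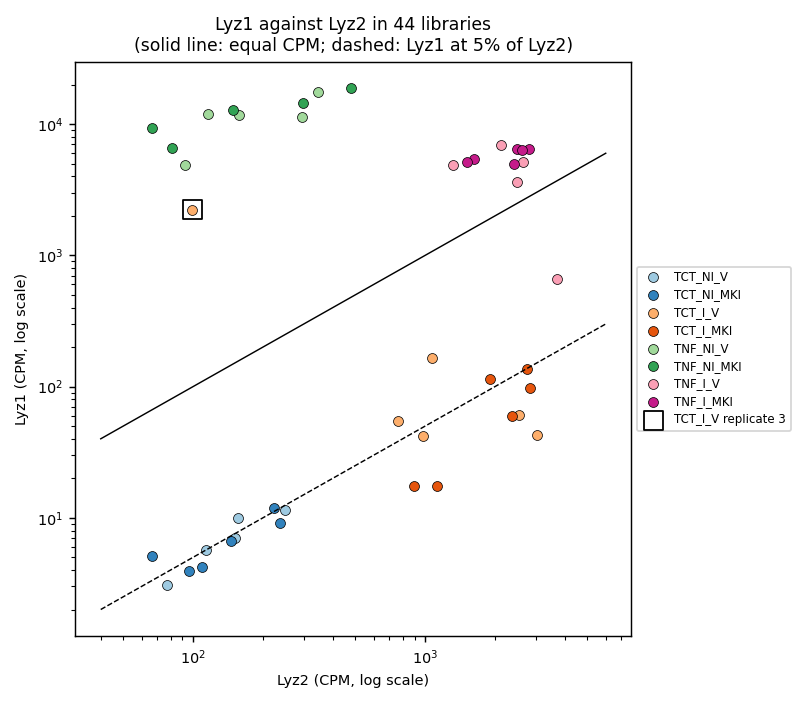
Lyz1 against Lyz2 in CPM (log axes) in the 44 libraries, coloured by group, with lines at equal level and at Lyz1 of 5% of Lyz2. All transfer libraries but inflamed vehicle replicates 1 and 3 lie near or below the dashed line, and the TNFΔARE libraries lie above the line of equal level except inflamed vehicle replicate 2.

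ATI-450 against vehicle gave no call among the 4 genes tested in either transfer state. Treatment was spread unevenly over batches. Among inflamed libraries, batch 1 held 2 on ATI-450, batch 3 held 1 on vehicle and 3 on ATI-450, and batch 4 held 5 on vehicle and 1 on ATI-450. The fits carry a batch term, and overlap was read without it. In inflamed libraries 0.00653% of all genes passed (1 of 15317, with 519 at an unadjusted p under 0.05). Defa24 was at -7.97 ± 2.15 (adjusted p = 0.991), with 0.131 to 1.10 CPM (median 0.475) on ATI-450. Itln1 was at -4.07 ± 1.48, Lyz1 at -2.22 ± 0.99 and Ang4 at 0.47 ± 1.17 (adjusted p = 0.991 each). The high vehicle values of Defa24, Itln1 and Lyz1 were those of replicates 1 and 3. These fits include both libraries, and fold changes without them are not given here. In non-inflamed libraries 0% of genes passed, with 219 at an unadjusted p under 0.05. Ang4 there was at 1.09 to 1530 CPM (median 73.8) on ATI-450 against 6.83 to 151 CPM on vehicle, a difference of 2.86 ± 1.32 (unadjusted p = 0.0436, adjusted p = 1), and Itln1 at 1.21 to 77.8 CPM (median 2.32), a difference of 2.15 ± 1.46 (adjusted p = 1). The highest value of both genes came from replicate 3, and the groups overlapped. No gene of the 10 was without overlap in these 2 contrasts, where 0.144% (inflamed) and 0.0914% (non-inflamed) of all genes were, and the interaction gave no call (0% of genes, 338 at an unadjusted p under 0.05).

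Of 25 further Paneth program genes tested in the transfer model, 3 rose and 2 fell on vehicle. Over all genes tested 14.2% passed in that contrast (7.74% higher). The fits in this paragraph include inflamed vehicle replicates 1 and 3, and values without them are not given here. Reg3b rose by 4.90 ± 1.22 (adjusted p = 0.0125), Reg3g by 4.68 ± 1.25 (adjusted p = 0.0176) and Nod2 by 1.40 ± 0.45 (adjusted p = 0.0419), while Tcf7l2 and Sox9 fell. Mmp7 was at 0.121, 0.557, 0.183, 79.3 and 4.96 CPM without inflammation and at 17.1 to 186 CPM with it (2.73 ± 1.06, adjusted p = 0.0881). On ATI-450 6 of the 25 rose, where 13.4% of all genes tested were called higher. Mmp7 was among them (7.19, adjusted p = 0.000417), with 43.3 to 144 CPM against 0.199 to 2.06 CPM. Of 12 myeloid markers 11 rose on vehicle. Of 11 small intestinal markers 7 rose, and 51400 CPM of their sum in replicate 3 stood against 81.5 to 1860 CPM in the other 5 libraries.

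The last comparison tested whether the effect of inflammation on vehicle differed between the models, for the 10 genes in one fit of all 44 libraries. The effect was more positive in the transfer model for Lyz1 and Itln1, where 5.28% of 15565 genes passed (3.37% in that direction). Defa17, Defa24 and Mptx2 passed as well, but Defa17 and Mptx2 had failed the filter of the transfer model and entered through the TNFΔARE libraries, and Defa24 had entered the transfer fit through inflamed libraries, so these 3 are given as values only. The difference was 7.36 ± 1.24 for Lyz1 (adjusted p = 0.000496), 13.39 ± 2.44 for Defa24 (adjusted p = 0.000759), 8.27 ± 1.77 for Itln1 (adjusted p = 0.00409), 11.61 ± 2.41 for Defa17 (adjusted p = 0.0028) and 10.83 ± 2.74 for Mptx2 (adjusted p = 0.0152). Without transfer inflamed vehicle replicate 3, 2 of the 10 passed, Lyz1 (4.96 ± 0.79, adjusted p = 0.000158) and Defa24 (8.15 ± 2.11, adjusted p = 0.0169). Without replicates 1 and 3 Lyz1 alone passed (4.19 ± 0.74, adjusted p = 0.000788). In the remaining transfer inflamed vehicle libraries Lyz1 counts were 1.41 to 7.20% of Lyz2 counts. How many of them were reads of Lyz2 was not tested. Ang4 did not differ by the test (0.62, adjusted p = 0.876).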

How the data were processed

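RNA was sequenced from mouse intestine in 44 libraries, with poly-A selection and a strand-specific kit, per the labels' protocols. The authors deposited expected counts per gene for each model, estimated reads given as whole numbers without scaling. Per the submitters' processing notes the tools were Salmon 0.14.1 and DESeq2, with the builds mm10 and GRCm38. For the annotation release and the settings: not given in the sources used here. The deposited normalized tables were not used.

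Of 29720 identifiers 29395 matched a symbol. In R 4.3.3, edgeR 4.0.16 was run on the expected counts with filterByExpr, TMM and a robust quasi-likelihood fit with group and the labelled batch as terms, over all 4 groups of a model. Differences between models used all 44 libraries with batch nested in model, and the non-inflamed vehicle groups were compared without a batch term. Tests were two-sided, adjusted by Benjamini-Hochberg over all genes tested, at 0.05. Of the 10 genes, 4 passed the filter in the transfer model and 10 in the TNFΔARE model. Levels are CPM on TMM-scaled totals of the joint fit, and log2 fits come with SE. The scripts were tested on simulated data. Depths of 5.80 to 22.3 M (M for 1000000 counts) mean that genes near 0 rest on a few counts. The reads carry no molecular identifiers, so counts are not numbers of molecules.

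The 10 genes and all lists were chosen with earlier results of these data known. Other genes were named by rule: the 4 most abundant further alpha-defensins, Lyz2 and Mptx1, Paneth program genes past the threshold (at most 6 per comparison), Mmp7, Hoxb13, Car1, Sis, Lgr5 and the 8 genes most alike per model. Alternatives were RLE size factors, no count filter, DESeq2 1.42.0, no batch term, totals without these genes, a replicate block, the 2 groups alone, 1 batch alone, each library left out, and 2 sets of libraries left out that were chosen after seeing the data. The replicate numbers were not taken as pairs, since no comparison had every same-numbered pair of libraries correlated above 0.1 in their deviations from the group means. ATI-450 against vehicle in non-inflamed transfer libraries came closest, with 3 of 4 pairs above 0.1 (median r 0.333). Sequences came from the reference genome, the GENCODE M21 transcripts and the RefSeq promoter table.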

Additional observations from a re-analysis of the deposited data

Results flagged for a closer look

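For each gene and group with at least 4 libraries and a highest count of at least 50, the gap of the highest or lowest library to its nearest neighbour was set against the range of the group by Dixon's criterion. Of 59 gene and group combinations checked, 18 stood apart, in 5 libraries. The criterion's rate of about 1 in 20 holds for independent, normal values. CPM of genes that vary together are neither, so the 18 cannot be set against that rate. The library labelled transfer inflamed vehicle replicate 3 accounted for 10 of them, with all 10 genes far above the rest of its group: Defa17 at 700 CPM, Defa21 at 942, Defa22 at 810, Defa24 at 1770, Defa29 at 203, Defa30 at 641, Lyz1 at 2220, Mptx2 at 195, Ang4 at 154 and Itln1 at 744 CPM.

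TNFΔARE non-inflamed vehicle replicate 2 was the low library of its group for Defa17 (2430 CPM), Ang4 (278 CPM) and Itln1 (1980 CPM). TNFΔARE inflamed inhibitor replicate 1, the one library of that group in batch 2, was the low library for Defa21 (2030 CPM) and Defa22 (1740 CPM). Transfer non-inflamed inhibitor replicate 3 was the high library for Ang4 (1530 CPM, with 428 CPM in the next) and Itln1 (77.8 CPM, with 14.9 CPM in the next). Transfer non-inflamed vehicle replicate 2 was the high library for Itln1 (7.54 CPM, with 3.05 CPM in the next).

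The effect of inflammation on vehicle differed between the models for Lyz1 (7.36 on the log2 scale) and Itln1 (8.27). This was the test of the difference itself (edgeR, joint fit of 44 libraries). Defa17 (11.61), Defa24 (13.39) and Mptx2 (10.83) passed it as well, but are given as values only. Defa17 and Mptx2 did not pass the count filter of the transfer model, and Defa24 passed it through inflamed libraries alone. Host, gut region and batch differ between the models with these values and cannot be told apart, and without transfer inflamed vehicle replicates 1 and 3 the test was passed by Lyz1 alone. How many Lyz1 counts in transfer libraries were reads of Lyz2 was not tested.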

How the results depend on the processing

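Counts below are of the 10 genes passing the adjusted threshold. For TNFΔARE inflammation on vehicle the count was 1 and became 3 with DESeq2 (Defa29, Lyz1 and Itln1), 2 with the replicate block (Lyz1 and Itln1), 0 with the 2 groups alone and 0 in batch 2 alone. It ran from 0 to 7 with each library left out, at 0 without non-inflamed replicate 4 or inflamed replicate 1, 2 without inflamed replicate 2 and 7 without inflamed replicate 4. For TNFΔARE inflammation on ATI-450 the count of 0 became 1 with DESeq2 (Itln1), 1 without the batch term (Lyz1) and 1 with the 2 groups alone (Defa29), and stayed at 0 with each library left out. For transfer inflammation on vehicle the count of 3 became 1 with the replicate block, 1 without inflamed replicates 1 and 3, 1 without replicate 3 and the libraries with pancreatic transcripts (Lyz1 each time), 0 with the 2 groups alone and 0 in batch 4 alone, and ran from 2 to 4 with each library left out. For transfer inflammation on ATI-450 the count of 1 became 2 under both of those sets of libraries left out (Lyz1 and Defa24) and stayed at 1 with each library left out. For ATI-450 in inflamed transfer libraries the count of 0 became 1 without the batch term (Defa24, -8.98, adjusted p = 0.0362). For the difference between models the count of 5 became 9 with DESeq2, 9 without the batch term, and 1 under each of the 2 sets of libraries left out, and ran from 2 to 9 with each library left out (2 without transfer inflamed vehicle replicate 3, 9 without replicate 2, 4, 5 or 6). For the non-inflamed groups the count was 10 in every edgeR alternative. Other ATI-450 contrasts stayed at 0 throughout.

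Where fewer libraries were fitted, fewer degrees of freedom came with it, and otherwise the cause was not tested. No called gene changed direction, and of the values of single genes 1791 stayed on the same side of the threshold, called or not, 41 gained a call and 29 lost one. Counts for the transfer model and between models include genes whose direction the count filter fixed. DESeq2 gave no adjusted p for 3 of the 4 genes in the transfer contrasts and for 1 of the 10 between the non-inflamed groups, so no value stands there. A single batch could not be fitted where it left too few libraries in a group. The replicate block changed no other count.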
